A study of Homo sapiens with 18 samples.

Results

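The comparison described here is that of MDA-MB-231 cells carrying an inducible ZMYND8 construct after 48 h of doxorubicin with the same cells left untreated. It rests on 4 RNA-seq libraries, 2 from treated and 2 from untreated cells, of 18 in the series, and the members were taken from the line, drug and time given in the sample labels. MDA-MB-231 is an established triple-negative breast cancer cell line. Cells were transduced with the lentiviral vector pInducer20 carrying FLAG-ZMYND8 and selected with G418, and all groups received doxycycline at 250 ng/mL, so that the untreated cells were induced as well. Doxorubicin was given at 0.6 µM, beginning 4 h after induction. Groups set beside this comparison were the same cells after 6 h of doxorubicin and a matching line with inducible GFP in place of ZMYND8, untreated or treated for 6 or 48 h, with 2 libraries in each group. Each construct was carried by 1 line, so that the line and the construct cannot be told apart. The harvest time of the untreated cells is not stated in the sources used here, so time in culture and drug cannot be told apart either.

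ZMYND8 is a chromatin reader that binds acetylated histones and is found with chromatin remodelling and histone demethylase complexes. Doxorubicin is an anthracycline that inserts itself between DNA bases and traps topoisomerase II on cut DNA, which leaves double-strand breaks and can evict histones. Broken or displaced DNA is known to start a checkpoint response, a slowing of transcription and, through DNA in the cytoplasm, an interferon and NF-kB response. The question of the comparison was how the transcriptome of cells with forced ZMYND8 expression changes under prolonged drug.

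The 4 libraries held between 18300628 and 23724398 counted read pairs. The untreated pair of ZMYND8 cells differed from each other by more than any other pair of replicates, by a chi-square of their counts that came to 5.21 per degree of freedom against 2.19 to 3.66 in the other pairs. The share of counts from mitochondrial genes was 1.29% and 1.96% in the untreated libraries and 3.01% and 2.73% after 48 h. CPM are counts scaled to a common library size and adjusted for composition. Among the defining genes of MDA-MB-231, VIM stood at 3829 and 4175 CPM in untreated cells and at 2639 and 2535 CPM after 48 h. Of 10 markers of MDA-MB-231 and basal cells 1 rose and 8 fell, against 31.6% and 30.8% of all genes. Their summed level was 8162 and 8758 CPM before and 5423 and 5259 CPM after. The oestrogen receptor gene ESR1 stood at 0.447 and 0.656 CPM and then 0.691 and 0.638 CPM. Of 12 luminal markers, ESR1 among them, 3 rose and 6 fell. Luminal markers as a list were not near 0, with a summed level of 1100 and 1098 CPM before and 839 and 847 CPM after. Of 12 leukocyte markers 6 passed the filter on low counts. The summed level of these 6 was 8.77 and 7.79 CPM before and 14.8 and 14.3 CPM after treatment. MS4A1, which did not pass, was at 0. Of the 6, 5 rose and 1 fell, with a median log2 fold change of 1.37, and 3 rose without the second untreated or either treated library. PTPRC, the pan-leukocyte marker CD45, was at 0.0558 and 0.131 CPM before and 2.03 and 2.04 CPM after treatment. Of 9 endothelial markers 5 passed, with a summed level of 2.12 and 1.84 CPM before and 4.31 and 4.21 CPM after treatment. Of the 5, 3 rose and none fell, with a median of 1.51, and none rose without the second untreated library. CDH5, which defines endothelium, had 0 counts in both untreated libraries and 2 in each treated one. The part of these markers in the results was not tested. In bulk RNA, fewer cells of a type and less RNA per cell cannot be told apart.

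ZMYND8 itself (ENSG00000101040.19, chromosome 20, 47209214 to 47356889, hg38) was measured at 922 and 927 CPM in untreated cells and at 1001 and 924 CPM after 48 h. The ranges of the groups overlapped, and the change of 0.06 ± 0.04 (log2 fold change ± SE) did not pass the test (edgeR adjusted p = 0.24). In GFP cells, which had only the endogenous gene, the level was 209 and 208 CPM before and 139 and 141 CPM after 48 h, a log2 change of -0.58. The counts do not separate the transgene from the endogenous gene.

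Of 18801 genes tested, 5933 (31.6%) rose and 5785 (30.8%) fell at 48 h, where "rose" and "fell" stand for a Benjamini-Hochberg adjusted p of 0.05 or less from the edgeR quasi-likelihood fit. Rises were 50.6% of the calls with the composition-adjusted scaling used here. When libraries were scaled by their total counts instead, 8059 genes rose and 3981 fell, and rises made 66.9% of the calls. The median gene then moved by 0.25 on the log2 scale, against 0.05 here. Many of these changes were small: 2321 of the rises and 2939 of the falls were under 1.5-fold, while 2563 rises and 1222 falls were over 2-fold. The study states cutoffs of both 1 and 1.5 on the log2 scale with a p of 0.05 or less, and does not say whether that p was adjusted. With 1.5 and an unadjusted p, called the criterion of the study here, 1904 genes (10.1%) were higher and 432 (2.3%) lower. With a cutoff of 1 there were 2705 higher and 1261 lower. Of the 1904, 917 (48.2%) had at most 3 counts in both untreated libraries, and of the 432, 28 (6.48%) had at most 3 counts in both libraries at 48 h. With 2 libraries a group, an exact permutation test of a single gene cannot give a two-sided p under 0.333, so every call leans on the spread estimated across genes and across all 12 libraries of the inducible lines.

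**Figure D1:**
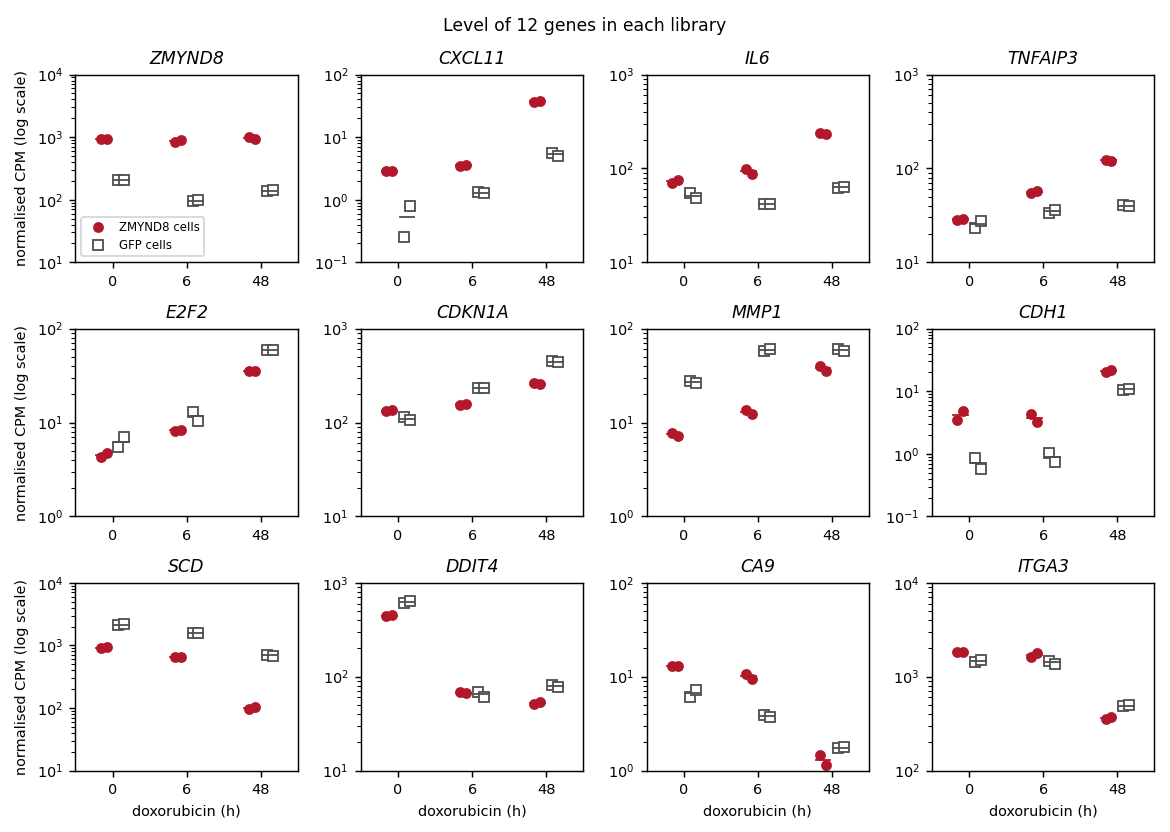
Normalised CPM (log scale) of 12 genes in each library of ZMYND8 cells (red circles) and GFP cells (open squares) at 0, 6 and 48 h of doxorubicin, with short lines at the group means. In ZMYND8 cells ZMYND8 itself lay between 829 and 1001 CPM, CXCL11, IL6, TNFAIP3, E2F2, CDKN1A, MMP1 and CDH1 were higher at 48 h in both libraries, and SCD, DDIT4, CA9 and ITGA3 were lower in both.

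The largest rises included the following, among genes with a symbol and an average log2 CPM of at least 1 over all 12 inducible libraries. That average includes the 6 h and GFP libraries, so genes with few counts in the 4 libraries compared could pass. Only called genes with no overlap between treated and untreated libraries were ranked. KRT9, a type I keratin of palm and sole skin, was at 0.279 and 0.394 CPM in untreated cells and at 13.1 and 12.8 CPM after 48 h, a 37.3-fold rise. RELN, which encodes the secreted glycoprotein reelin, went from 1.17 and 0.963 CPM to 22.1 and 19.4 CPM (19.5-fold). IDO1, the interferon-inducible enzyme that breaks down tryptophan, was at 1.79 and 1.36 CPM before and 22.2 and 21.4 CPM after, a 14-fold difference. WAKMAR2, a long non-coding RNA beside TNFAIP3 on chromosome 6, moved from 0.391 and 0.569 to 7.93 and 9.83 CPM (17.9-fold). The chemokine gene CXCL11 (chromosome 4, 76033682 to 76041415) stood at 2.90 and 2.84 CPM and then at 36.7 and 37.8 CPM, or 13-fold higher (edgeR adjusted p = 4.2e-18). That the treated libraries lay above the untreated ones in these 5 genes follows from the way they were chosen. FLT1, a receptor for vascular endothelial growth factor, had 3 and 0 counts in untreated cells and 38 and 47 after 48 h, a ratio of 24.0 with a 95% interval from 7.94 to 119 that covers counting error only. RHBDL3 had 3 and 0 counts against 41 and 44, the same ratio. The neutrophil collagenase gene MMP8 had 0 counts in both untreated libraries and 8 and 12 at 48 h, at least 2.80-fold higher against a floor of 3 counts in each library. NTN1, the axon guidance cue netrin, had 0 counts before and 1 and 11 after, and its call was lost without the second treated library. NELFE, of the MHC region where reads map to several haplotypes, rested on 1 treated library (19.4 and 0.510 CPM against 0.223 and 0.438 CPM) and was not called without it (log2 fold change 0.57).

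The largest falls by the same rule included the following. MIR210HG, the host gene of a hypoxia-induced microRNA, stood at 3.41 and 2.89 CPM in untreated cells and 0.163 and 0.383 CPM at 48 h (11.4-fold lower). NGFR, the low-affinity neurotrophin receptor, fell from 7.26 and 10.4 CPM to 1.02 and 0.723 CPM, a 10.2-fold drop. CA9, a carbonic anhydrase of the cell surface, was at 12.9 and 12.9 CPM and then at 1.46 and 1.15 CPM. SCD (chromosome 10, 100347233 to 100364826), the desaturase that makes oleate, went from 919 and 927 CPM to 95.4 and 105 CPM, a log2 change of -3.20 ± 0.05 (edgeR adjusted p = 1.9e-26). DDIT4, an inhibitor of the growth kinase mTORC1, went from 442 and 451 to 51.3 and 53.1 CPM. SLCO4A1, an organic anion transporter, was at 43.6 and 43.9 CPM before and 4.39 and 5.23 CPM after 48 h, a 9.09-fold fall. SIGIRR, a receptor that damps interleukin-1 signalling, was at 9.16 and 9.80 CPM and then 1.10 and 1.11 CPM (8.58-fold lower). F2RL3 had 4 and 7 counts before against 0 and 1 after, a ratio of 12.98 with an interval from 1.89 to 559. Apart from F2RL3, none of the genes of this paragraph rested on fewer than 10 counts in an untreated library.

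Ranked by change in CPM, the largest losses included these genes. ACTB, cytoplasmic beta-actin, was at 4965 and 5696 CPM and then at 1790 and 1742 CPM. ACTG1 went from 4232 and 4704 to 2035 and 2017 CPM, and the actin crosslinker gene FLNA from 3640 and 3676 to 1854 and 1788 CPM. The elongation factor gene EEF1A1 moved from 7427 and 7247 CPM to 4524 and 4424 CPM, and it shares reads with near-identical pseudogenes. The largest gains in CPM included mitochondrial genes, ISG15 (469.7 and 454 to 1151 and 1207 CPM) and PPP1R15A (346 and 368 to 912 and 848 CPM), which encodes the phosphatase subunit that ends the integrated stress response.

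Genes that were silent before treatment formed a separate group. With all libraries thinned to 18300628 counts, 23435 and 22938 genes had a count in untreated libraries and 29714 and 29741 at 48 h. The 6 h libraries had 22172 and 22158 such genes, so that the number was lower at 6 h than before treatment and higher only at 48 h. In all, 3879 genes were at 0 in both untreated libraries and counted in both treated libraries, against 155 the other way. Of the 3879, 1500 were protein-coding, 1605 were long non-coding RNAs and 662 were pseudogenes. Their counts were low: the median was 5 over both treated libraries, only 125 had at least 10 counts in each, and all together they took 0.0621% of the counts. The strongest of them was LINC02044, with 0 counts in both untreated libraries and 91 and 94 at 48 h, at least 25.8-fold higher against the floor of 3 counts per library. Among genes with at most 3 counts in each untreated library, OLR1, the receptor for oxidised low-density lipoprotein, had 3 and 0 counts against 97 and 81, a ratio of 50.3 (interval 16.9 to 246). DLL4, a Notch ligand of sprouting vessels, had 2 and 1 against 83 and 72, a ratio of 43.8 (14.7 to 215). IQGAP2 had 1 and 2 counts against 81 and 68 (ratio 42.1). Olfactory receptor genes, which are mostly expressed in sensory neurons, were counted in 17 and 15 of 400 in untreated cells and in 78 and 78 after 48 h. Their counts were few, 65 and 74 in all before and 229 and 208 after. In GFP cells 17 and 12 of these genes were counted before and 106 and 123 after 48 h. Going the other way, PCDHGB7 of the gamma protocadherin cluster had 16 and 15 counts before and 1 and 0 after, a ratio of 36.6 with an interval from 6.10 to 1491.

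**Figure D2:**
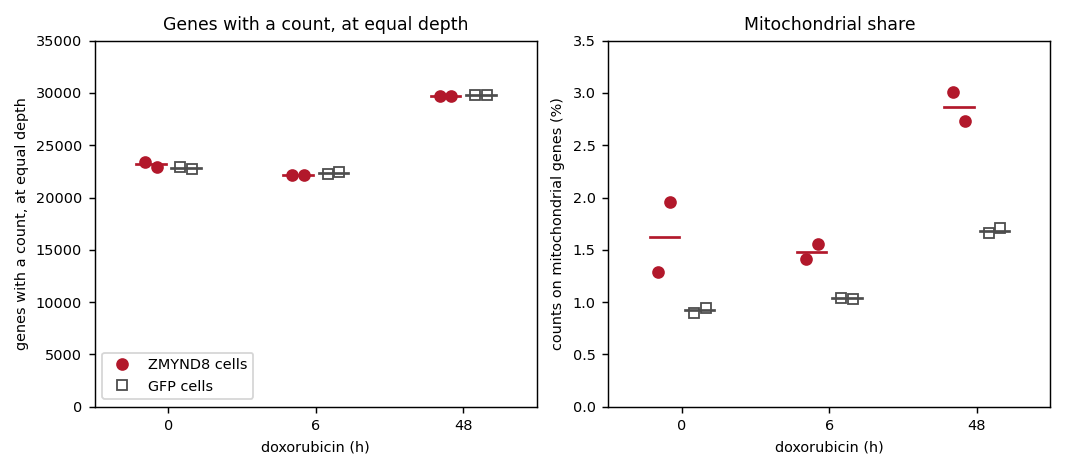
Left, number of genes with at least 1 count after all libraries were thinned to the smallest total, and right, percent of counts from the mitochondrial genome, for each library of ZMYND8 cells (red circles) and GFP cells (open squares) at 0, 6 and 48 h, with short lines at the group means. The treated libraries of ZMYND8 cells sit at 29714 and 29741 genes against 23435 and 22938 before treatment, and at a mitochondrial share of 3.01% and 2.73% against 1.29% and 1.96%.

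**Figure D3:**
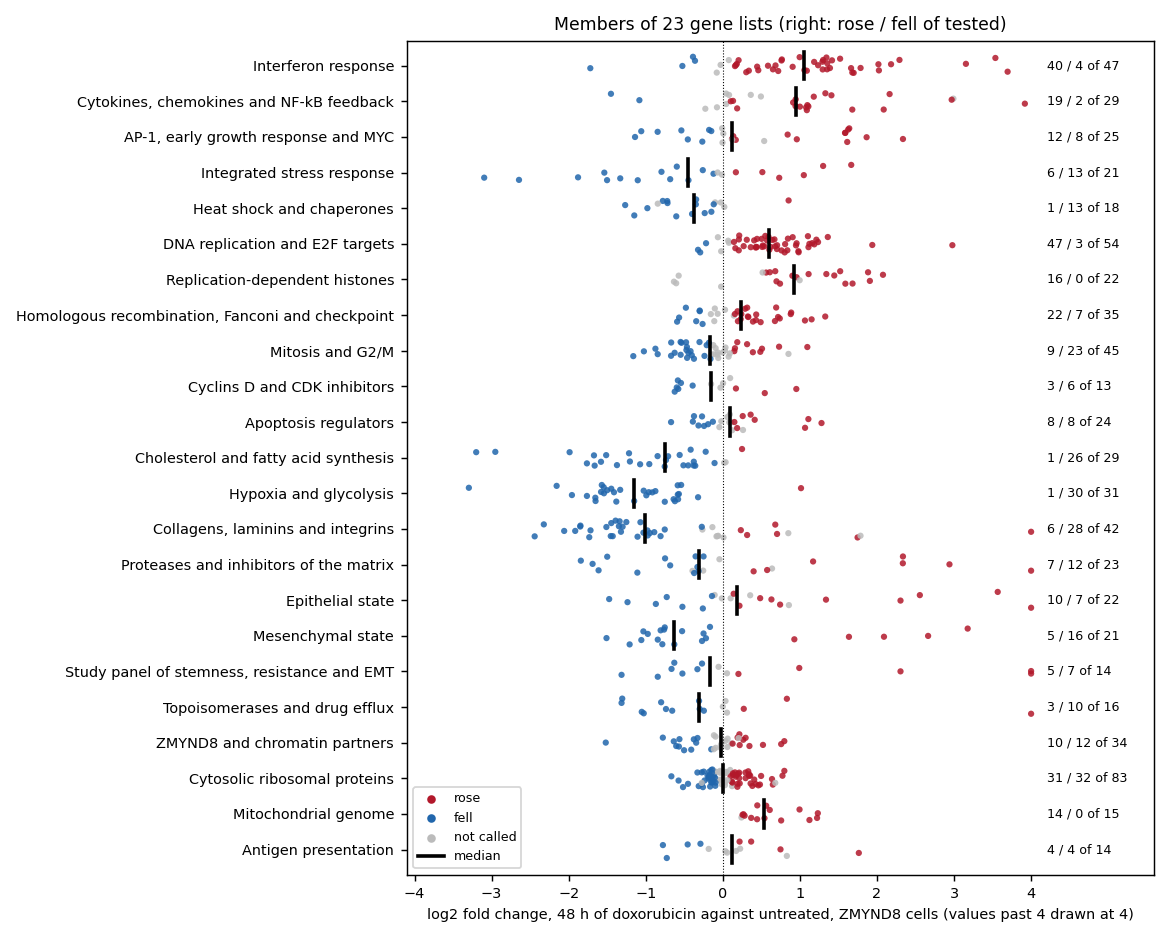
Log2 fold change at 48 h of each tested member of 23 gene lists in ZMYND8 cells, with rises in red, falls in blue, other members in grey, a black bar at the median and, at the right, how many rose and fell of those tested. The medians of the interferon, cytokine, histone and E2F lists (1.06, 0.95, 0.93 and 0.60) lie right of 0, and those of the hypoxia, collagen and cholesterol lists (-1.15, -1.0 and -0.75) left of it.

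Interferon-stimulated genes encode antiviral effectors and chemokines, and are switched on through the factor complex ISGF3 and interferon regulatory factors at a short element, the ISRE. Of 47 tested members, 40 rose and 4 fell, against 31.6% and 30.8% of all genes, and the median log2 fold change was 1.06 against 0.05 for all genes. The median was -0.12 at 6 h. The same shares of all genes, 31.6% and 30.8%, stand behind the counts of members that rose and fell in every list below. Those shares differ by gene type and level. Of protein-coding genes with an average log2 CPM of at least 1, 30.8% rose and 44.1% fell. At an average of 7 or more, 22.6% of them rose and 62.7% fell. No list was matched for level. The promoters of CXCL10 and ISG15 are shown because they carry the searched ISRE letters, TTTC, any 2 bases and TTTC on either strand, and their genes encode a chemokine and a ubiquitin-like modifier of the list. Promoter sequences run from 250 bases before to 50 after the start (RefSeq, GRCh38.p14), 5′ to 3′ on the strand of the gene, with matches in capitals.
CXCL10 (chr4:76023448-76023747, minus strand): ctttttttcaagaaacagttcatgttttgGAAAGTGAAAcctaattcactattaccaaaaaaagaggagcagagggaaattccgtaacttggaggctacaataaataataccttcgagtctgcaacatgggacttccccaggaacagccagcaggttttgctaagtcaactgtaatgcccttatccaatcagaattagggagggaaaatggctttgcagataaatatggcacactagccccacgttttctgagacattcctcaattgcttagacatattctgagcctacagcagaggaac
ISG15 (chr1:1013247-1013546, plus strand): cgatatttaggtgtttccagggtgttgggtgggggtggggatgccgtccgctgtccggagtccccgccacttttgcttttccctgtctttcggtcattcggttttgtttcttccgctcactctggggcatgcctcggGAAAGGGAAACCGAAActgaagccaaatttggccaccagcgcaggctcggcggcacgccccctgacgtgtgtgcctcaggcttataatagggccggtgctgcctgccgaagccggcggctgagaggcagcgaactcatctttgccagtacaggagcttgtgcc
These letters were found in 24 of the 37 member promoters on file (64.9%) and in 3.65% of 27305 promoters of all genes. ISG15, a ubiquitin-like modifier, was at 469.7 and 454 CPM in untreated cells and 1151 and 1207 CPM after 48 h, a 2.55-fold rise (edgeR adjusted p = 5.6e-20). CXCL10, a chemokine for T cells, had 0.391 and 0.0875 CPM before and 3.01 and 2.30 CPM after, or 11.6-fold more. IFNL1, an interferon of type III, went from 0.726 and 0.875 to 7.28 and 7.19 CPM (8.90-fold). IFI6, an antiviral protein of the endoplasmic reticulum, was at 30.8 and 30.2 CPM and then at 137 and 139 CPM (4.54-fold). Both treated libraries lay above both untreated ones in these 4 genes, and 5912 of the 5933 genes that rose had no overlap. The 4 falls were modest but for GBP2, a guanylate-binding protein, which went from 18.5 and 18.6 to 5.57 and 5.70 CPM (3.29-fold lower). GBP1 was at 38.5 and 42.8 CPM before and 28.6 and 28.1 CPM after, and BST2, which tethers virus particles, at 176 and 184 and then 139 and 142 CPM.

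Of 14 tested genes of antigen presentation, 4 rose and 4 fell, against 31.6% and 30.8% of all genes, and 8 rose and 3 fell with scaling by total counts. HLA-B went from 25.2 and 24.8 to 44 and 40.0 CPM, a value that depends on how reads shared between MHC genes and haplotypes were counted. The chaperones CALR (1224 and 1278 to 776 and 736 CPM) and PDIA3 (313 and 343 to 195 and 188 CPM), which help load peptides, fell. CD274, which encodes the checkpoint ligand PD-L1, was also lower, with 53.3 and 56.0 CPM before and 39.6 and 40.2 CPM after (1.37-fold).

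The cytokine list joined secreted inflammatory factors with the proteins that NF-kB induces to shut itself off. Of 29 tested members 19 rose and 2 fell, with a median log2 fold change of 0.95 (0.94 with the member at 0 before treatment set to its bound). The same median was 0.03 at 6 h. TNFAIP3 and IL6 are printed here with the searched NF-kB letters (GGG, any 2 bases and TTTCC, on either strand) in capitals, as the feedback inhibitor and the cytokine of the list.
TNFAIP3 (chr6:137867009-137867308, plus strand): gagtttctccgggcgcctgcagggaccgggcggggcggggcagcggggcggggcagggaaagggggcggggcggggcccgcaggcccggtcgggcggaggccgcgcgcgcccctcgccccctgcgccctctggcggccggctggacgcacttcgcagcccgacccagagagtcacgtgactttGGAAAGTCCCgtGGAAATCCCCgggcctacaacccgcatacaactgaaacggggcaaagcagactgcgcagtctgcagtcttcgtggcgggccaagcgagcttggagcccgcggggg
IL6 (chr7:22726950-22727249, plus strand): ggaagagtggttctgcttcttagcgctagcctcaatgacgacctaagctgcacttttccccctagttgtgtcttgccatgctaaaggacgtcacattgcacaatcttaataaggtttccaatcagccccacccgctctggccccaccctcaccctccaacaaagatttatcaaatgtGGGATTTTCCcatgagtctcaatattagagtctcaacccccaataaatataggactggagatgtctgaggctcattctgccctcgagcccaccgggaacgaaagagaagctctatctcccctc
The letters were present in 10 of 22 member promoters (45.5%) and in 1.92% of all promoters. IL6 was at 69.7 and 75.9 CPM in untreated cells, 98.6 and 88.1 CPM at 6 h and 238 and 229.8 CPM at 48 h, a 3.20-fold rise at 48 h. TNFAIP3, the ubiquitin-editing enzyme that ends NF-kB signalling, went from 28.4 and 28.9 CPM to 123 and 120.3 CPM (4.25-fold). IL24, a cytokine of the interleukin-10 family, was at 17.6 and 17.7 and then 138 and 139 CPM (7.83-fold, edgeR adjusted p = 1.4e-23). CSF2, which encodes GM-CSF, moved from 1.17 and 1.97 to 7.52 and 6.98 CPM (4.48-fold). BIRC3, an inhibitor of apoptosis induced by NF-kB, was at 42.7 and 45.6 and 97.1 and 93.8 CPM (2.16-fold). All 5 were clear of overlap between untreated and treated libraries, as were 5912 of the 5933 genes that rose. CCL5 differed between the treated libraries, at 13.7 and 1.06 CPM against 0.168 and 0.744 CPM before, and it was not called without the first of them (log2 fold change 1.13). The falls were CSF1, the macrophage growth factor (175 and 188 to 87.1 and 84.2 CPM), and LIF (76.3 and 75.8 to 28.3 and 27.3 CPM).

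AP-1, EGR and nuclear receptor genes of the early response split: 12 of 25 rose and 8 fell, against 31.6% and 30.8% of all genes. NR4A3 rose from 2.62 and 1.71 to 11.1 and 10.5 CPM (5.05-fold), FOSB from 3.07 and 3.06 to 12.0 and 10.3 CPM and EGR2 from 2.74 and 1.93 to 7.36 and 7.02 CPM. ATF3, a stress-induced repressor, rose from 55.2 and 55.1 to 172 and 169 CPM (3.09-fold). Among the falls, KLF6 went from 783 and 807 to 359 and 363 CPM and DUSP4, a phosphatase that switches off ERK, from 745 and 731 to 354 and 354 CPM. FOSL1, the AP-1 subunit typical of invasive breast lines, was at 331 and 351 CPM before and 192 and 188 CPM after (1.80-fold lower).

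E2F factors drive the genes of the G1/S transition and DNA synthesis. Of 54 tested genes of replication and E2F control, 47 rose and 3 fell, with a median log2 fold change of 0.60 (0.40 at 6 h). E2F2 and CDC6 are given as an E2F factor and a licensing factor, with the searched letters TTTNNCGC on either strand in capitals.
E2F2 (chr1:23531184-23531483, minus strand): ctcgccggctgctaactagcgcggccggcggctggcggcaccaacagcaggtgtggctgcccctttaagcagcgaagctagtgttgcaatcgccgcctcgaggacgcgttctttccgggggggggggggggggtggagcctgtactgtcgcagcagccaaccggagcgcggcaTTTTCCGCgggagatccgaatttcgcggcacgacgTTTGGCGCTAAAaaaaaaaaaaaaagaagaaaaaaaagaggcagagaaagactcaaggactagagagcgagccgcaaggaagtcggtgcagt
CDC6 (chr17:40287629-40287928, plus strand): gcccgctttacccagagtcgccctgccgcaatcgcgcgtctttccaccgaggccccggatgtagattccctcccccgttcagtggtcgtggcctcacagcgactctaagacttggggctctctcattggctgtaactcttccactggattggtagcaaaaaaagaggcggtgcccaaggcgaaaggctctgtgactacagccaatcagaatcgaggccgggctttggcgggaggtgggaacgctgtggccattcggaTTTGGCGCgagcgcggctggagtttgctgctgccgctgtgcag
Of 47 member promoters on file 25 held these letters (53.2%), as did 6.9% of all promoters. E2F2 stood at 4.30 and 4.68 CPM in untreated cells, 8.08 and 8.4 CPM at 6 h and 35.6 and 35.6 CPM at 48 h, 7.88-fold over untreated (edgeR adjusted p = 3.5e-18). E2F8, an E2F repressor, went from 20.3 and 20.8 to 80.1 and 77.8 CPM (3.84-fold). CDC6, which loads the replicative helicase, was at 90.2 and 81.4 CPM before and 221 and 219 CPM after (2.57-fold). CDC25A, the phosphatase that activates CDK2, went from 34.8 and 36.8 to 85.6 and 83.2 CPM, and TK1, thymidine kinase, from 126 and 126 to 295 and 287 CPM. Most of the list moved together, and the 3 falls were small. Helicase subunit genes MCM5 (70.0 and 70.9 to 57.2 and 57.8 CPM) and MCM6 (67.0 and 72.5 to 56.5 and 55.3 CPM) were 2 of them, and neither passed the test with scaling by total counts.

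Replication-dependent histone genes make messages without a poly(A) tail, so that an oligo-dT library sees few of them. Of 67 listed, 22 passed the filter, and 16 of these rose and none fell, with a median log2 fold change of 0.93. H2BC11 was at 2.40 and 2.54 CPM and then 10.9 and 10.1 CPM (4.22-fold), and H4C8 at 3.02 and 3.33 and 12.5 and 11.4 CPM (3.75-fold). Whether more message or more polyadenylated message was present cannot be told apart here.

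Among 35 genes of homologous recombination, the Fanconi pathway and the checkpoint, 22 rose and 7 fell (median log2 fold change 0.24). BRCA1, which directs the resection of broken ends, was at 49.1 and 50.2 CPM before and 113 and 107 CPM after (2.22-fold). RAD51AP1, which assists strand exchange, went from 32.3 and 34.0 to 85.8 and 81.1 CPM, and the nuclease gene EXO1 from 38.3 and 37.2 to 81.0 and 76.7 CPM. None of the 7 falls passed a test against a change of 1.5-fold. Among them, ATM was at 72.2 and 64.1 and 48.8 and 48.7 CPM (1.39-fold lower). NBN, of the MRN complex, was at 51.1 and 51.9 and 36.1 and 32.2 CPM. WEE1, the kinase that holds CDK1 inactive, fell from 117 and 119.8 to 81.4 and 78.7 CPM.

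Mitotic genes are expressed late in the cycle under the MMB and FOXM1 complexes, which bind a CHR element. Of 45 tested members, 9 rose and 23 fell, with a median log2 fold change of -0.16 (0.05 with scaling by total counts, where 17 rose) and -0.28 at 6 h. PLK1 is shown because it had the largest fall on the list, with the searched CHR letters TTTGAA on either strand in capitals.
PLK1 (chr16:23678639-23678938, plus strand): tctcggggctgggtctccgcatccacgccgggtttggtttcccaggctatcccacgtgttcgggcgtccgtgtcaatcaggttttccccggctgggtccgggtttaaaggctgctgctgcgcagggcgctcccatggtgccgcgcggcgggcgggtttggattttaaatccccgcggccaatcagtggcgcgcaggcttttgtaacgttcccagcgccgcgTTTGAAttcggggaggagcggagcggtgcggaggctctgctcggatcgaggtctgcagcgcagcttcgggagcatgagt
These letters were in 25 of 38 member promoters (65.8%) against 15.4% of all promoters. PLK1, the kinase that drives mitotic entry and spindle assembly, was at 101 and 107 CPM in untreated cells, 69.3 and 73.6 CPM at 6 h and 46.4 and 46.7 CPM at 48 h (2.24-fold lower at 48 h, edgeR adjusted p = 2.4e-16). CENPE, a kinetochore motor, went from 92.6 and 90.5 to 44.4 and 45.6 CPM, and ANLN, which organises the contractile ring, from 579.8 and 574 to 311 and 318 CPM. The members that rose included transcription factors of this programme: MYBL2, the MYB subunit of MMB, was at 79.3 and 83.8 CPM and then 176 and 173 CPM (2.14-fold), and FOXM1 was at 146 and 159 and 200.2 and 199 CPM (1.31-fold). AURKB, the kinase of the chromosomal passenger complex, rose from 68.4 and 70.0 to 97.1 and 99.8 CPM.

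CDKN1A (chromosome 6, 36676460 to 36687339), the CDK inhibitor p21, was at 133 and 135 CPM before and 263 and 256 CPM after 48 h, a 1.94-fold rise (edgeR adjusted p = 7.2e-17). Of 13 cyclin D, CDK and CDK inhibitor genes 3 rose and 6 fell, against 31.6% and 30.8% of all genes. CCND1, among the falls, was at 662 and 695 CPM before and 1047 and 1135 CPM at 6 h. At 48 h it was at 448 and 449 CPM. The list median was -0.15, and 0.05 with scaling by total counts. Of 24 apoptosis regulators 8 rose and 8 fell, near the 31.6% and 30.8% of all genes. HRK, a BH3-only killer, went from 1.28 and 2.14 to 3.54 and 3.79 CPM, though it was not called without the first untreated library (log2 fold change 0.74), and the survival gene BCL2 fell from 15.5 and 13.5 to 9.07 and 9.10 CPM. The 8 rises were 5 without the first and 5 without the second untreated library, and the 8 falls were 5 without the first treated library. With scaling by total counts 16 rose and 3 fell.

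The integrated stress response passes from ATF4 to amino acid supply genes and to its own feedback. Of 21 tested members 6 rose and 13 fell, against 31.6% and 30.8% of all genes. The median log2 fold change was -0.45 (0.02 at 6 h). ATF5 rose from 35.3 and 34.1 to 116 and 104 CPM (3.17-fold), DDIT3, the factor CHOP, from 30.5 and 33.3 to 66.4 and 66.1 CPM (2.07-fold) and PPP1R15A 2.47-fold. CEBPB was at 175 and 174 CPM before and 284 and 296 CPM after (1.66-fold). By contrast, PHGDH, the entry enzyme of serine synthesis, fell from 11.1 and 14.8 to 1.59 and 2.59 CPM (6.26-fold), and NUPR1 from 8.10 and 8.88 to 2.03 and 2.59 CPM. The other 2 rises were SLC3A2 (1.43-fold), a subunit of amino acid transporters, and MTHFD2 (1.12-fold), a mitochondrial folate enzyme that was named after its value was seen and was not called without the first untreated library (log2 fold change 0.13). ASNS, which makes asparagine, was lower at 0.732 and 0.638 CPM against 1.79 and 2.10 CPM.

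Chaperone genes fell: 13 of 18 tested were lower and 1 was higher, against 30.8% and 31.6% of all genes. Of protein-coding genes with an average log2 CPM of 7 or more, 62.7% fell, and the list was not matched for level. Their median log2 fold change was -0.37, against 0.26 at 6 h. HSP90AA1, the inducible HSP90, was at 3410 and 3485 CPM in untreated cells, 3805 and 3639 CPM at 6 h and 2109 and 2073 CPM at 48 h (1.65-fold lower). DNAJB1, the co-chaperone that marks heat shock factor activity, went from 599 and 626 to 248 and 261 CPM (2.41-fold), and HSPD1, the mitochondrial chaperonin, from 1134 and 1170 to 593 and 576 CPM. HSPA5, the chaperone BiP of the endoplasmic reticulum, was at 1236 and 1312 and then 591 and 558 CPM (2.22-fold). HSPB8 was the rise, from 63.4 and 70.9 to 123 and 120.4 CPM.

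Cholesterol and fatty acid synthesis genes are governed by the SREBP factors, which are cleaved when membrane sterol is low. Of 29 tested members 26 fell and 1 rose, with a median log2 fold change of -0.75 (-0.11 at 6 h). Beside SCD, a large fall was in INSIG1, the sterol-sensitive anchor of SREBP, at 219 and 214 and then 54.8 and 54.4 CPM (3.97-fold, edgeR adjusted p = 5.5e-23). FADS2, a desaturase of polyunsaturated fatty acids, went from 176 and 172 to 48.6 and 53.6 CPM, and ELOVL6 from 59.4 and 60.6 to 19.2 and 18.5 CPM. In none of these genes did treated and untreated libraries overlap, nor did they in 5770 of the 5785 genes that fell. FDPS, which makes farnesyl diphosphate, was the rise, from 128 and 139 to 165 and 152 CPM (1.19-fold). The letters TCACNCCAC, a core of sterol response elements, were in 1 of 22 member promoters (SREBF2) and 1.15% of all.

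Of 31 tested genes of hypoxia and glycolysis 30 fell and 1 rose, with a median log2 fold change of -1.15 (-0.21 at 6 h). These genes answer to hypoxia-inducible factors, which bind the core ACGTGC or its shorter forms. CA9 and LDHA are shown as the largest fall of the named members and the enzyme that forms lactate, with matches to ACGTGC on either strand in capitals.
CA9 (chr9:35673678-35673977, plus strand): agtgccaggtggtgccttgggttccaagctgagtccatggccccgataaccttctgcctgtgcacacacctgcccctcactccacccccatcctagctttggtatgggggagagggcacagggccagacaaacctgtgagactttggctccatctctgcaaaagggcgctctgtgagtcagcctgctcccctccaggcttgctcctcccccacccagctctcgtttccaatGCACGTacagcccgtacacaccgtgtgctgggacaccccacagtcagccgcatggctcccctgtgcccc
LDHA (chr11:18394313-18394612, plus strand): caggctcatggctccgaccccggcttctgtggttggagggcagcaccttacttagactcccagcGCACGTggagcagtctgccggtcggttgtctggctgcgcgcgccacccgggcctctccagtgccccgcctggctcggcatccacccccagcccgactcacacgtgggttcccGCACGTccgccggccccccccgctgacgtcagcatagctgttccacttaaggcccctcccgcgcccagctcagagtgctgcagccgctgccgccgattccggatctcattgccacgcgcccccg
Of 27 member promoters 9 held the letters (33.3%), against 6.87% of all promoters. LDHA, lactate dehydrogenase A, was at 2112 and 2150 CPM in untreated cells, 1944 and 1889 CPM at 6 h and 680.3 and 674 CPM at 48 h (3.15-fold lower, edgeR adjusted p = 2.7e-23). PDK1, which keeps pyruvate out of mitochondria, went from 53.3 and 56.0 to 13.8 and 14.4 CPM (3.89-fold), and NDRG1, a stress-regulated growth restraint gene, from 1150 and 1164 to 263 and 256 CPM (4.46-fold). HIF1A, the oxygen-regulated subunit itself and a member of the chromatin partner list, was at 507 and 502 CPM before, 231 and 224 CPM at 6 h and 173 and 179.5 CPM at 48 h. The single rise was ADM, the vasoactive peptide adrenomedullin, from 70.8 and 68.1 to 145 and 135 CPM, with 146 and 142 CPM already at 6 h.

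Genes of adhesion and matrix fell as well, with 28 of 42 tested collagen, laminin and integrin genes lower and 6 higher. The median log2 fold change was -1.0. Among all genes 30.8% were lower and 31.6% higher. For protein-coding genes with an average log2 CPM of at least 1, 44.1% fell, as did 67.4% of those spanning 100 to 250 kb. At an average log2 CPM of 7 or more 62.7% of them fell. The list was not matched for span or level. ITGA3, the alpha subunit of a laminin receptor, was at 1813 and 1849 CPM and then 357 and 375 CPM, a 5.00-fold fall (edgeR adjusted p = 5.9e-24). ITGA6 went from 503 and 492 to 131 and 133 CPM and COL18A1 from 211 and 209.9 to 37.5 and 40.1 CPM (5.43-fold). COL17A1, the hemidesmosomal collagen, rose from 6.92 and 6.00 to 21.4 and 21.8 CPM (3.36-fold). Matrix proteases and their inhibitors were divided, with 7 of 23 rising and 12 falling, against 31.6% and 30.8% of all genes. MMP1, interstitial collagenase, rose from 7.76 and 7.26 to 40.0 and 35.6 CPM (5.05-fold) and MMP3 from 0.335 and 0.219 to 1.5 and 1.28 CPM, while MMP14, the membrane-bound activator of MMP2, fell from 343 and 346 to 96.3 and 95.9 CPM (3.59-fold). PLAU, urokinase, went from 334 and 366 to 109 and 108 CPM and the inhibitor gene TIMP3 from 369 and 386 to 125 and 122 CPM.

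Markers of the mesenchymal state, which this line expresses strongly, were lower in 16 of 21 tested and higher in 5. Of protein-coding genes with an average log2 CPM of at least 1, 44.1% were lower and 30.8% higher. S100A4 went from 532 and 569 to 237 and 239 CPM (2.31-fold lower), ZEB1, a repressor of E-cadherin, from 87.6 and 89.6 to 50.5 and 48.2 CPM and VIM fell 1.55-fold. TAGLN, a smooth muscle actin-binding protein, was at 11.6 and 12.2 CPM before, 40.0 and 42.0 CPM at 6 h and 4.03 and 4.34 CPM at 48 h, so that its 6 h level was above and its 48 h level below that of untreated cells. SNAI1, another repressor of E-cadherin, rose from 3.35 and 2.49 to 9.27 and 8.72 CPM, and ACTA2 from 1.62 and 2.23 to 8.34 and 8.34 CPM. Of 22 tested epithelial genes 10 rose and 7 fell, against 31.6% and 30.8% of all genes. Without the first untreated library the rises no longer outnumbered the falls. CDH1, E-cadherin, was at 3.46 and 4.86 CPM and then 20.1 and 21.7 CPM (4.94-fold, edgeR adjusted p = 4.6e-13), while the tight junction gene CLDN4 fell from 302 and 306 to 107 and 112 CPM and KRT19 from 186 and 180.4 to 98.6 and 102 CPM.

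Of 18 genes that the study followed for stemness, drug resistance and epithelial or mesenchymal state, 14 were tested. The study measured ALDH1 and ESA by flow cytometry and E-cadherin by immunoblot, taken here as ALDH1A1, EPCAM and CDH1. Of the 14, 5 rose and 7 fell, against 31.6% and 30.8% of all genes. The epithelial marker CDH1 was among the rises. That panel was chosen by the study and is no independent evidence of direction. ABCB1, the efflux pump for doxorubicin, had 0 counts in both untreated libraries and 11 and 13 at 48 h, at least 3.35-fold higher against the floor. ALDH1A1, a stem cell marker enzyme, had 0 counts and then 21 and 10, at least 4.28-fold higher. ABCC1, another efflux pump, fell from 29.0 and 19 to 8.99 and 10.1 CPM (2.49-fold), with untreated libraries that differed from each other. CD44 was at 642 and 679 CPM and then 539 and 512 CPM (1.26-fold lower), and CD24 at 38.9 and 40.7 and then 81.9 and 76.7 CPM (1.99-fold higher). NOTCH1 went from 82.6 and 77.4 to 50.4 and 50.3 CPM. SOX9, at 106 and 120.1 CPM before and 115 and 104 CPM after, did not pass the test. Among 16 topoisomerase and efflux genes 3 rose and 10 fell, against 31.6% and 30.8% of all genes. TOP2B, a topoisomerase II of resting cells and a target of doxorubicin, was lower at 97.1 and 94.5 CPM against 197 and 194 CPM (2.04-fold). TOP2A, the proliferation-linked target, was named outside the rule after its values were seen, with 768 and 769.7 CPM before and 775 and 762 CPM after. Its log2 fold change of 0.00 ± 0.04 did not pass the test.

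Among 34 tested genes of ZMYND8 and its chromatin partners, 10 rose and 12 fell, near the shares of all genes. KDM6B, the demethylase of histone H3 lysine 27, went from 50.2 and 55.0 to 92.4 and 90.9 CPM (1.74-fold higher) and EZH2, the methyltransferase of that residue, from 81.1 and 89.7 to 122 and 123 CPM. With scaling by total counts 17 of the list rose, and its median of -0.03 became 0.18.

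Cytosolic ribosomal protein genes showed no common direction: 31 of 83 rose and 32 fell, against 31.6% and 30.8% of all genes. The median log2 fold change was 0.00 (0.21 at 6 h), and 52 rose and 6 fell with scaling by total counts. RPL13 went from 895 and 861 to 541 and 564 CPM and RPL9 from 27.4 and 26.6 to 47.5 and 46.2 CPM, and many of these genes share reads with pseudogenes. Of 15 mitochondrial genes 14 rose and none fell, with a median of 0.54, but the untreated libraries differed: MT-RNR2 was at 1517 and 2098 CPM before and 4103 and 3778 CPM after. Without the first untreated library 8 of the 15 rose, and with DESeq2 also 8.

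The size of a gene in the genome moved with its change. Of protein-coding genes with an average of at least 1 log2 CPM, the median log2 change was 0.11 for the 1988 spanning under 10 kb and -0.72 for the 576 spanning 250 kb or more. The shares that fell were 31.6%, 33.3%, 45.3%, 67.4% and 71.9% from the shortest to the longest of 5 bins. The share that rose went from 43.1% to 10.1%. In GFP cells the medians of the outer bins were 0.01 and -0.77. At 6 h the medians in ZMYND8 cells were 0.11 and -0.27. Other properties of the same genes moved with the 48 h change in ZMYND8 cells as well. The share that fell was 32.3% at 1 exon block (merged exons), 26.0% at 2 to 3 and 63.9% at 21 or more. By level, it was 21.6% at an average log2 CPM of 1 to 3 and 62.7% at 7 or more. Span, exon number and level were not separated. These are descriptions across genes, which are not independent replicates.

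**Figure D4:**
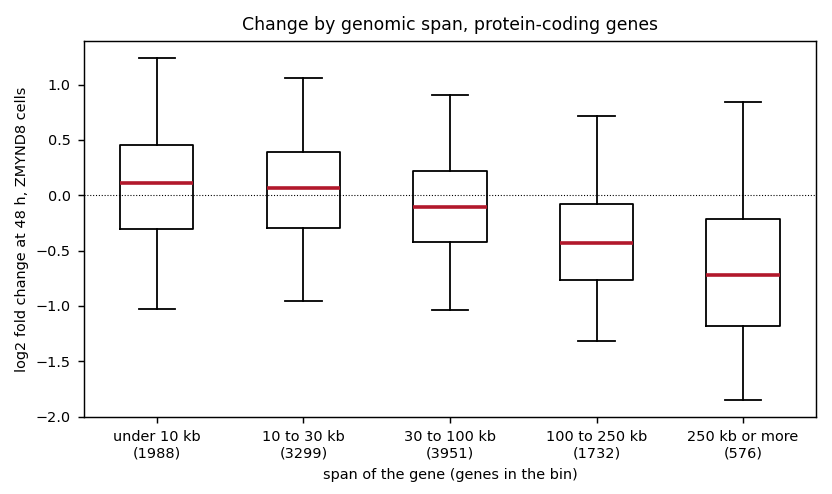
Log2 fold change at 48 h in ZMYND8 cells of protein-coding genes in 5 bins of genomic span, with boxes from the first to the third quartile, a line at the median and whiskers from the 5th to the 95th percentile, and the number of genes under each bin. The median goes from 0.11 under 10 kb to -0.72 at 250 kb or more.

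The same contrast in GFP cells called 6091 genes (32.4%) higher and 5986 (31.8%) lower. Of the genes that rose in ZMYND8 cells 72.1% also rose in GFP cells and 4.3% fell there, and of those that fell 77.4% also fell and 5.27% rose. Across 13167 genes with an average of at least 1 log2 CPM, the changes of the lines had a Pearson r of 0.78 and a Spearman rho of 0.78, given as a description with no test, since the points share libraries. The difference between the lines, tested as an interaction with no shared libraries between the effects, was called in 2397 genes (12.7%) toward a higher change in ZMYND8 cells and in 2974 (15.8%) toward a lower one.

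**Figure D5:**
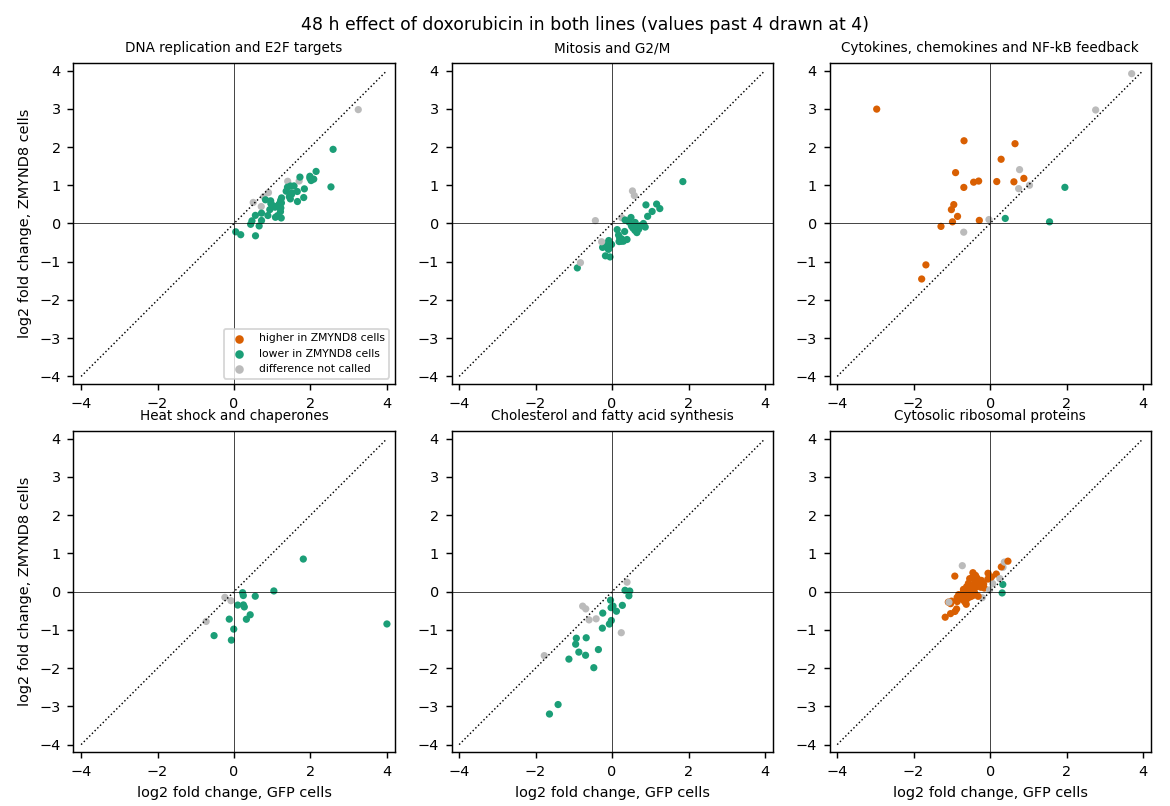
Log2 fold change at 48 h in ZMYND8 cells (vertical) against GFP cells (horizontal) for the tested members of 6 lists, with members whose difference was called higher in ZMYND8 cells in orange, lower in green and not called in grey, and a dotted line where both changes are equal. All 47 replication members with a called difference lie under the line, and 73 of 83 ribosomal members have a called difference above it.

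Several lists moved unequally in the lines. Among all genes tested, the difference was called higher in ZMYND8 cells in 12.7% and lower in 15.8%. These shares stand behind the counts of called differences in every list from here on. All 47 replication and E2F members with a called difference had the lower change in ZMYND8 cells, where the list median was 0.60 against 1.22 in GFP cells. Mitotic genes had medians of -0.16 and 0.34, with 39 of 45 lower in the interaction and none higher. The same held for 24 of 35 recombination genes, with 1 higher. Untreated levels of the mitotic list differed between the lines. Its summed level was 7111 and 7116 CPM in untreated ZMYND8 cells and 4972 and 4854 CPM in untreated GFP cells. At 48 h it was 6234 and 6186 CPM in ZMYND8 cells and 6592 and 6554 CPM in GFP cells. The untreated replication list was closer, at 4330 and 4420 CPM in ZMYND8 cells and 3989 and 3835 CPM in GFP cells. CDKN1A was at 114 and 106 CPM in untreated GFP cells and at 447 and 446 CPM after 48 h, a log2 change of 2.02 against 0.95 in ZMYND8 cells (difference -1.07 ± 0.06, edgeR adjusted p = 3.6e-13). FOXM1 changed by 0.39 and 1.25 in ZMYND8 and GFP cells (difference -0.86 ± 0.06), and TOP2A by 0.00 and 0.82 (difference -0.82 ± 0.05).

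Inflammatory genes went the other way, with 19 of 29 cytokine members higher in the interaction and 3 lower, and list medians of 0.95 and -0.28. The lines differed before treatment: the summed level of the list was 1134 and 1159 CPM in untreated ZMYND8 cells and 2105 and 2155 CPM in untreated GFP cells, against 1787 and 1733 CPM and 1856 and 1843 CPM at 48 h. IL6 stood at 54.2 and 48.4 CPM in untreated GFP cells and 62.5 and 62.8 CPM at 48 h, a difference between the lines of 1.39 ± 0.08 (edgeR adjusted p = 9.9e-13). TNFAIP3 moved by 2.09 in ZMYND8 cells and 0.65 in GFP cells (difference 1.44 ± 0.10). CSF2 rose in ZMYND8 cells and went from 16.5 and 19 to 11 and 11.1 CPM in GFP cells, a difference of 2.85 ± 0.24. BIRC3 changed by 1.11 and -0.30 (difference 1.41 ± 0.09), CEBPB by 0.73 and -0.33 (1.06 ± 0.06) and KDM6B by 0.80 and -0.26 (1.06 ± 0.08). The interferon list had 11 members higher and 20 lower in the interaction, with medians of 1.06 and 0.98. Its summed level was 6272 and 6440 CPM in untreated ZMYND8 cells and 3097 and 3186 CPM in untreated GFP cells. At 48 h it was 10170 and 10020 CPM in ZMYND8 cells and 4756 and 4727 CPM in GFP cells. Ribosomal protein genes were higher in 73 of 83 and lower in 2, with medians of 0.00 and -0.54.

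Chaperone and cholesterol genes differed toward a lower change in ZMYND8 cells. Of 18 chaperone genes 15 were lower and none higher, with medians of -0.37 and 0.23. Their summed level was 15020 and 15940 CPM in untreated ZMYND8 cells and 9624 and 9641 CPM in untreated GFP cells, and 10600 and 10390 CPM and 10040 and 10010 CPM at 48 h. HSP90AA1 changed by -0.72 in ZMYND8 cells and 0.32 in GFP cells (difference -1.04 ± 0.05, edgeR adjusted p = 1.5e-14). DNAJB1 differed by -1.20 ± 0.06 and HSPD1 by -0.97 ± 0.05. Of 29 cholesterol and fatty acid genes 22 were lower and none higher, with medians of -0.75 and -0.36. They summed to 4267 and 4288 CPM in untreated ZMYND8 cells and 7177 and 7229 CPM in untreated GFP cells. At 48 h they summed to 2025 and 2024 CPM in ZMYND8 cells and 4676 and 4577 CPM in GFP cells. SCD went from 2090 and 2214 to 699 and 684 CPM in GFP cells, a change of -1.64 and a difference of -1.56 ± 0.06, and INSIG1 differed by -1.51 ± 0.06. CDH1 rose more in GFP cells, from 0.862 and 0.580 to 10.4 and 11 CPM (difference -1.57 ± 0.31). Untreated lines also differed in single genes named here, by a log2 difference (ZMYND8 minus GFP) of -1.22 in SCD, 2.53 in CDH1, -3.45 in CSF2, -1.36 in BIRC3, 1.46 in DNAJB1 and 1.39 in HSPD1. The largest called differences at sufficient levels included HHIP, a decoy receptor of hedgehog ligands, at 1.06 and 1.01 and 3.98 and 4.47 CPM in ZMYND8 cells and 23.9 and 23.7 and 7.63 and 6.94 CPM in GFP cells (difference 3.74 ± 0.25), and AMPH, a membrane-bending protein of nerve terminals, at 12.0 and 12.3 and 6.95 and 7.49 CPM against 0.101 and 0.316 and 1.64 and 1.30 CPM (difference -3.54 ± 0.42), both with untreated levels that were far apart between the lines. BRDT, a bromodomain protein of the testis, was at 29.1 and 27.4 CPM in untreated and 21.1 and 22.4 CPM in treated ZMYND8 cells and at 0 in both untreated GFP libraries.

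The 6 h libraries share the untreated controls with the 48 h ones, so their values stand side by side only. At 6 h, 4102 genes (21.8%) rose and 3573 (19.0%) fell. DDIT4 was at 68.8 and 66.3 CPM at 6 h against 51.3 and 53.1 CPM at 48 h, and SLCO4A1 at 9.22 and 9.66 CPM against 4.39 and 5.23 CPM, both between the untreated and the 48 h level. CDC25A stood at 83.6 and 89.8 CPM at 6 h and 85.6 and 83.2 CPM at 48 h. In other genes the 6 h libraries lay near untreated ones, as for ITGA3 (1615 and 1773 CPM), ISG15 (465 and 449.7 CPM), IL24 (19.5 and 19.2 CPM) and BRCA1 (49.1 and 50.7 CPM).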

How the data were processed

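Total RNA was extracted with RNeasy columns, checked for integrity and made into oligo-dT selected, stranded libraries sequenced as paired ends. The count table was deposited unnormalised. The authors counted read pairs with featureCounts 1.6.4 against GENCODE release 31 on hg38, over exons summed by gene, with strand, and without pairs that map to several places. As aligner, the methods of the study name TopHat, while the submitters' processing notes name HISAT2 after Trim Galore, and they also name DESeq2. Genes of the MHC region and near-identical copies lose such pairs, and their counts are uncertain.

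The 12 libraries of the inducible lines, in 6 groups of 2, were fitted together with edgeR 4.0.16 in R 4.3.3 (TMM scaling, filterByExpr by group, quasi-likelihood test, Benjamini-Hochberg adjustment over 18801 of 60603 genes). CPM here are counts scaled by the TMM-adjusted library total and not by length, so levels of different genes are not compared. Symbols and gene types came from GENCODE release 44 by identifier (60261 matched), coordinates from the count table, and promoters from RefSeq tables on GRCh38.p14. Residual degrees of freedom were 6. The labels call the 2 libraries of a group biological replicates. The fit was tested on simulated counts with known changes. Alternatives covered scaling, the filter, the cutoff, DESeq2 1.42.0, a replicate term and leaving out each library. Intervals and floors (3 counts in each library) cover counting error only. Figures were drawn with matplotlib 3.10.9.

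Members and lists were chosen with earlier results of these data known. Genes are named by a rule: ZMYND8, the 12 largest rises and falls with an average log2 CPM of at least 1, a symbol and no overlap between libraries, the 6 largest gains and losses in CPM, up to 5 rises and 5 falls from each list with at least 1 CPM in the higher group, all genes followed by the study, 8 near-silent genes each way, and the 6 largest differences between the lines each way. The text gives fewer than the rule allows, identifiers without a symbol were passed over, and exceptions are marked as such. Some genes and 1 list are not reported here.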

Additional observations from a re-analysis of the deposited data

Results flagged for a closer look

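The results below stand here because the effect of 48 h of doxorubicin differed between ZMYND8 and GFP cells by the interaction term of the edgeR fit. The difference was called toward a higher change in ZMYND8 cells for 2397 genes and toward a lower one for 2974. Differences are log2 values, the change in ZMYND8 cells minus that in GFP cells. They were positive for ZMYND8 itself (0.64), the cytokine genes IL6 (1.39) and CSF2 (2.85), the NF-kB feedback genes TNFAIP3 (1.44) and BIRC3 (1.41), CEBPB (1.06), KDM6B (1.06) and HHIP (3.74). They were negative for the cell cycle genes CDKN1A (-1.07), FOXM1 (-0.86) and TOP2A (-0.82), the chaperone genes HSP90AA1 (-1.04), DNAJB1 (-1.20) and HSPD1 (-0.97), the lipid genes SCD (-1.56) and INSIG1 (-1.51), CDH1 (-1.57) and AMPH (-3.54). Each of these 18 genes kept the direction and the call of its difference under every alternative run for it, leaving out single libraries included. Groups of 2 libraries were not examined for outlying samples.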

How the results depend on the processing

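Genes called at 48 h in ZMYND8 cells were 5933 higher and 5785 lower. With a test against a change of 1.5-fold (glmTreat), 2373 were higher and 1906 lower. By the criterion of the study, 3213 genes were higher with no filter on low counts and 437 with at least 10 counts in every library of the comparison, against 1904. Lower by that criterion were 268 with total counts, 253 with at least 10 counts in every library and 1261 with a cutoff of 1 on the log2 scale, against 432. The filters test other numbers of genes by construction, and the cause of the rest was not tested. Leaving out each library in turn gave 4929 to 5276 higher and 5332 to 5591 lower genes, 1920 to 2104 and 470 to 512 by the criterion of the study, and 1965 to 2030 higher and 2468 to 2832 lower in the difference between the lines. These fits keep 1 library in a group and assume that it varies like the others. A replicate block gave 5858 higher and 5740 lower genes, 1879 and 429 by the criterion of the study, and 2353 and 2906 in the difference between the lines. Same-numbered libraries of the 2 ZMYND8 groups deviated with a correlation of -0.142, and other pairs of groups between -0.085 and 0.051. With 2 libraries a group, these values cannot decide whether any libraries were paired. The crossed pairing, added after seeing the data, gave 5870 higher and 5758 lower genes. SOX9 and TOP2A, which were not called, had log2 fold changes of 0.15 and 0.21 with total counts, against -0.06 and 0.00. Of the 134 genes followed, 28 changed a call at 48 h under some alternative, most often under the test against 1.5-fold. In 2 of 1723 values at 48 h the direction was reversed, with a call in the main fit or in the alternative. For the difference between the lines, 21 of the 134 genes changed a call under some alternative.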

Other observations

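Genes of the clustered protocadherins, adhesion proteins of the nervous system encoded in tandem on chromosome 5, were chosen after their values were seen. Of 13 tested gamma protocadherins 7 fell and none rose, with a median log2 fold change of -1.48 at 48 h in ZMYND8 cells, -1.70 in GFP cells and -0.68 at 6 h. Of 13 tested beta protocadherins 6 fell and none rose, with a median of -0.99. Among all genes tested 30.8% fell and 31.6% rose. Members of a gamma cluster share their last exons, so the counting of reads there is uncertain.

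Zinc finger genes named ZNF, many of which encode repressors of transposable elements and lie in clusters on chromosome 19, were also looked at after the fact. Of 460 tested members 253 rose and 62 fell, against 31.6% and 30.8% of all genes. The median log2 fold change was 0.33 in ZMYND8 cells and 0.22 in GFP cells. On chromosome 19, 143 of 227 rose and 12 fell. Of 28 tested semaphorins and plexins 18 fell and 5 rose, against 30.8% and 31.6% of all genes.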
